A study of Moricandia arvensis and Moricandia suffruticosa and Moricandia moricandioides with 78 samples.

Results

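Well-watered control plants of Moricandia arvensis (Mav), a C2 species that recaptures photorespired CO2 in its leaves, were compared between 2 sampling points of the same growth experiment. The comparison held 10 of the 78 libraries of the series, namely the 5 Mav controls of T2 and the 5 Mav controls of T0, taken by species, treatment and time in the sample labels. T0 was sampled after 4 weeks of growth, before water was withheld from any pot. T2 was the later day on which the droughted plants had fallen to 10% of their stomatal conductance, while the control pots were brought back daily to their starting weight and are labeled at 100%. All Mav plants were of the line MOR1 from IPK Gatersleben. The 4 T0 and 2 T2 controls of the C3 species M. moricandioides (Mmo), used for comparison at the end, were of the line 04-0393-10-00 from Osnabruck. All were without transgene or added agent, and shared the growth room, its light and the weekly fertilizer, with pots sealed in bags. At T2 the plants were older and had spent longer in sealed pots. RNA came from mature leaves, collected by position from the apex, and the interval between T0 and T2 is not given in days in the sources used here. T0, T1 and T2 were collected at midday, with no clock hour stated. Plant age, leaf age, sampling occasion and hour of collection therefore cannot be told apart in this comparison.

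The total count per library was 28784862 to 36441143 at T0 and 29012042 to 37783763 at T2. Counts on organelle-encoded features took 1.11% ± 0.632 (SD, n = 5) of the total at T0 and 0.988% ± 0.296 (SD, n = 5) at T2, a difference of -0.125 percentage points (exact permutation test, two-sided, p = 0.706). The median log2 fold change over all tested genes was 0.0017. On the 500 most variable genes the first principal component took 41.1% of the variance, with the T0 libraries at -35.6 to -20.1 and the T2 libraries at 18.3 to 39.8. The second took 15.0% and spread the T2 libraries from -40.8 (A16c) to 28.95 (A22c). Lanes were not balanced, since 4 T0 libraries and 2 T2 libraries were run in lane 1, 1 and 2 in lane 7, and 1 T2 library in lane 2.

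Of 33602 features, 19821 passed the filter on low counts and were tested with the quasi-likelihood test of edgeR. At T2, 650 genes were higher and 738 were lower at an adjusted p under 0.05, together 7.00% of the genes tested (3.28% higher and 3.72% lower). Of these, 480 higher and 500 lower genes changed by more than 2-fold, which is 4.94% of the genes tested (2.42% and 2.52%). For the available Mav controls against T0 the paper states a much smaller share of differently expressed genes. Its limits there were p under 0.05 and a log fold change over 1, and it used DESeq2. With DESeq2, 1730 genes were past 2-fold here at an adjusted p under 0.05. The reason for the different shares was not tested. The libraries of both groups did not overlap in level for 1663 genes (8.39% of the genes tested). Of the 1388 genes that passed, 1145 were without overlap, which is 5.78% of the genes tested. With lane as a term 778 genes passed, and within lane 1 alone, with 4 against 2 libraries, 416 passed. The T2 library A16c stood apart on the second component, and without it 1682 genes passed, whereas 906 passed without A9c and 898 without A15c.

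The files carry Arabidopsis locus identifiers without names. Symbols are printed here only where the study's tables pair them with an identifier, and the identifiers of the other gene lists were set down from general knowledge of Arabidopsis, without an annotation table to check them against. In bulk leaf RNA, fewer cells of a type and less RNA per cell cannot be told apart.

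In plants the circadian clock is a loop of transcription factors in which factors that peak around dawn repress genes that peak later in the day, and these later genes, among them pseudo-response regulators and the evening complex, repress the dawn factors in turn. Leaf starch is made in the light and broken down at night, and many genes for its breakdown are transcribed in a daily rhythm. Of the whole lists examined, that of the clock held the largest share of members that passed. The lists were chosen with earlier results of these data known. Their shares beside that of all genes, here and below, are therefore descriptive and are not tests. Of the 23 members of the clock list 19 were tested, and 7 were higher and 6 lower at T2, or 68.4% of those tested against 7.00% of all genes. Its members lay between -6.89 and 3.10 in log2 fold change. The libraries of both times did not overlap for any of the 13 members that passed. Most genes that pass are without overlap, 1145 of 1388 over all genes, so this is not particular to the clock list.

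**Figure D1:**
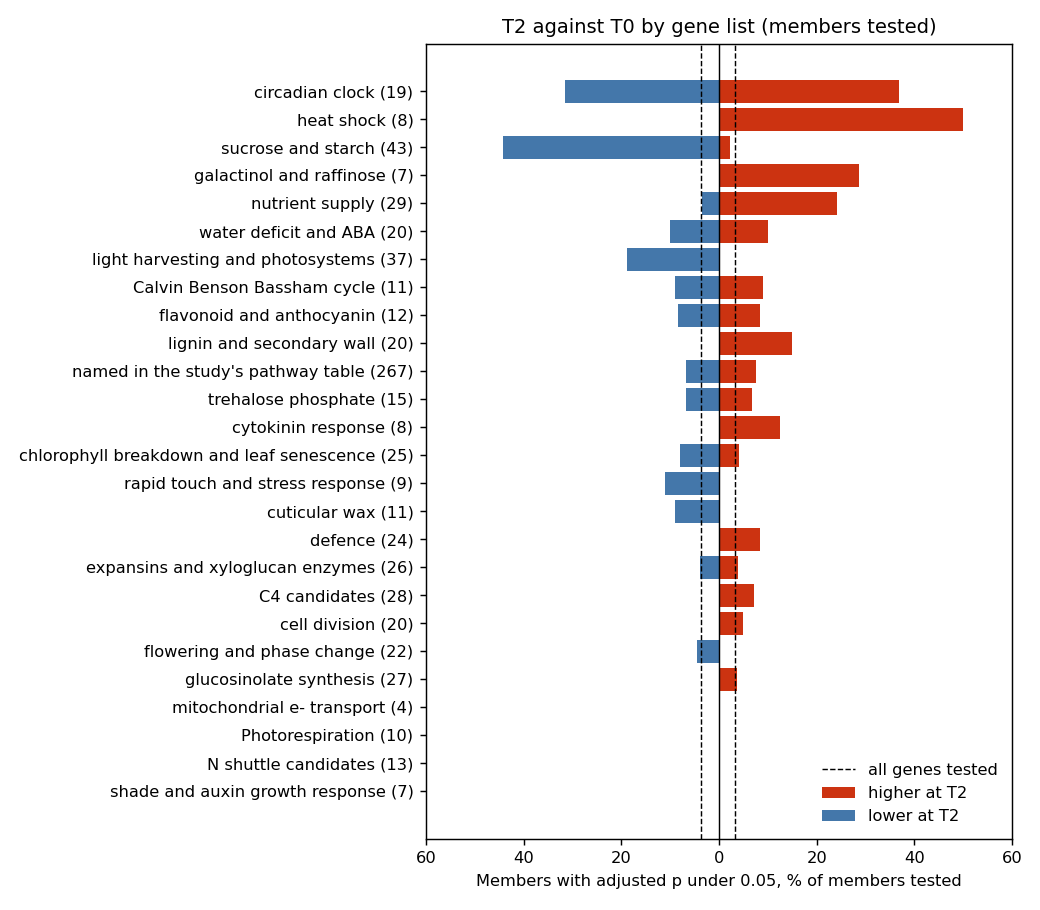
Share of tested members of each gene list with an adjusted p under 0.05, to the right for higher and to the left for lower at T2 than at T0, with the number tested in parentheses and dashed lines at the shares of all genes (3.28% higher, 3.72% lower). The clock (19 tested), heat shock (8) and sucrose and starch (43) lists have the longest bars, and the starch bar points almost wholly to lower values at T2. The heat shock bar counts members near 0 at T0 that could only be called higher. The lists were chosen with earlier results of these data known, so the bars are descriptive.

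All 8 tested members listed as morning factors had a positive log2 fold change (median 1.60), and 7 of them rose. The level of AT1G01060, in CPM (counts scaled to library size, here over the 19 Mav control libraries), was 4.999, 10.3, 5.25, 13.3 and 11.4 in the T0 libraries A1, A4, A45, A46 and A48 and 86.1, 77.98, 83.5, 94.6 and 51.99 in the T2 libraries A9c, A15c, A24c, A16c and A22c, an order kept throughout. Every T2 library was above every T0 library, and the log2 fold change was 3.102 ± 0.304 (SE, adjusted p = 2.51e-04). AT3G09600 was at 2.59, 5.48, 2.91, 9.35 and 3.69 CPM at T0 and at 24.6, 32.7, 18.1, 44.1 and 20.2 CPM at T2, a log2 fold change of 2.52 ± 0.39 (adjusted p = 0.00332). AT5G17300 was at 2.26 to 7.78 CPM at T0 and 21.5 to 48.3 CPM at T2, again without overlap (2.48 ± 0.37, adjusted p = 0.00276). The smaller increases were those of AT3G54500 (1.78 ± 0.31), AT5G64170 (1.42 ± 0.24), AT2G46830 (1.36 ± 0.32) and AT5G02840 (1.199 ± 0.203), with adjusted p between 0.00498 and 0.0259. In each of these 4 genes the libraries of both times were again apart.

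Of the 5 pseudo-response regulators 2 fell, by far more than any morning factor rose. AT5G61380 was at 115, 293, 113, 102 and 128 CPM at T0 and at 1.38, 0.521, 0.734, 0.702 and 2.99 CPM at T2. It was 119-fold lower at T2, with a log2 fold change of -6.89 ± 0.59 (SE, adjusted p = 1.14e-04). A4 was the highest T0 library for this gene, and even the lowest T0 library was more than an order of magnitude above every T2 library. AT5G24470 went from 249.8, 481, 289, 391 and 439 CPM to 16.3, 6.95, 9.71, 3.65 and 15.8 CPM (-5.17 ± 0.43, adjusted p = 9.98e-05). The other 3 members did not pass, with log2 fold changes of -0.88, -0.44 and 1.02 and adjusted p of 0.0955, 0.203 and 0.154.

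Of the 9 members listed as evening factors 6 were tested, all with a negative log2 fold change (median -1.97), and 4 fell. AT2G40080 was at 29.5, 72.4, 38.1, 30.2 and 37.5 CPM at T0 and 0.501, 0.116, 0.226, 0.843 and 1.32 CPM at T2, with a log2 fold change of -6.11 ± 0.59 (adjusted p = 2.31e-04). AT3G46640 was at 15.4, 37.7, 16.1, 19.3 and 13.5 CPM at T0 and 1.38, 0.434, 0.423, 0.456 and 1.12 CPM at T2 (-4.76 ± 0.46, adjusted p = 2.31e-04). No T2 library reached the lowest T0 library in either gene. AT2G18915 fell from 104–181 to 22.8–30.7 CPM (lowest to highest library of each time, -2.34 ± 0.19) and AT1G22770 from 109.6–183 to 28.8–68.2 CPM (-1.603 ± 0.24). AT2G18915 belongs to a family of similar genes, and its 2 listed relatives AT5G57360 and AT1G68050 had 91 and 1 counts over the 10 libraries, so its value may hold reads of the family. Within lane 1 alone, 9 of the 13 members that passed still did so, and AT5G61380 had a log2 fold change of -7.41 there.

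**Figure D2:**
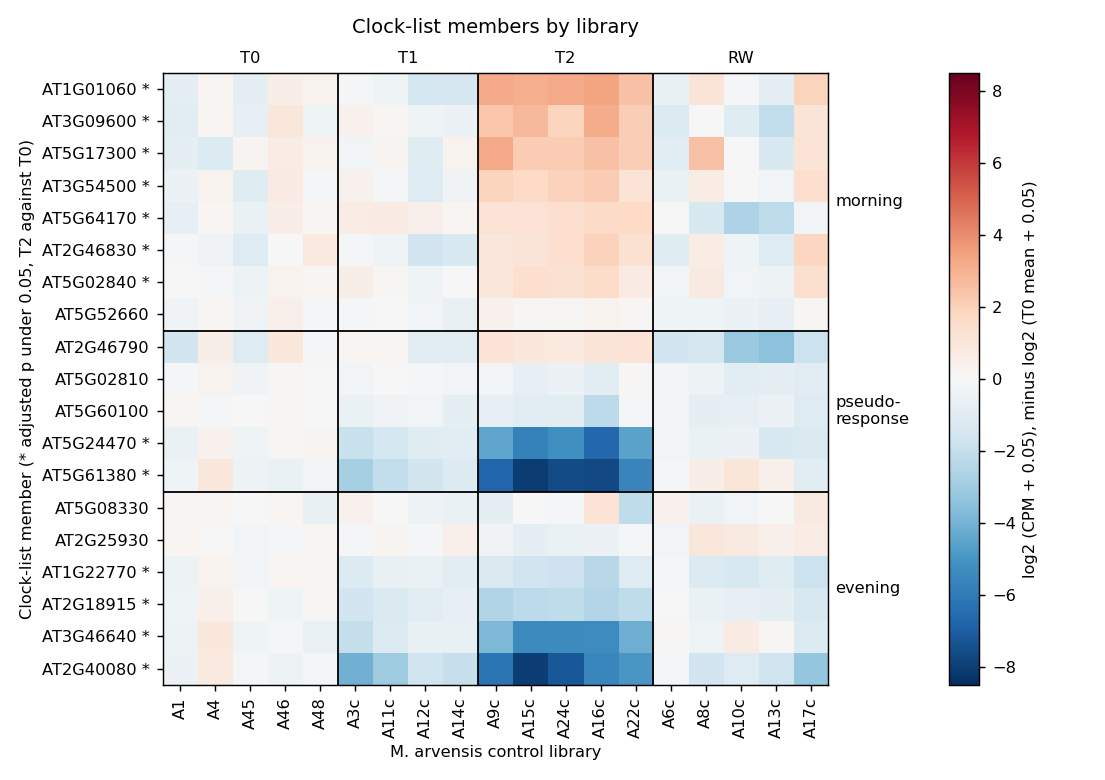
Clock-list members (rows, by role) in the 19 Mav control libraries (columns, by sampling time), colored by log2 (CPM + 0.05) relative to the T0 mean, with asterisks for an adjusted p under 0.05 in T2 against T0. The 5 T2 columns are red in the morning block except AT5G52660 and dark blue for AT5G61380, AT5G24470, AT3G46640 and AT2G40080, while the RW columns are mostly pale.

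The other control samplings of Mav place these values. At T1, between T0 and T2, AT5G61380 was at 21.6, 34.5, 50.6 and 67.3 CPM, below T0 and above T2 in every library. At RW, taken after T2 and after the droughted plants were rewatered, it was at 143, 221, 307, 199 and 82.5 CPM, around the T0 range. AT1G01060 was at 3.203 to 8.32 CPM at T1 and 5.12 to 33.3 CPM at RW, below all T2 libraries at both times. AT5G24470 was at 100.5 to 186 CPM at T1 and 148 to 321 CPM at RW. For AT5G61380 and AT5G24470 the later RW controls thus lay nearer to T0 than to T2. The RW plants were collected once soil water was the same in both treatments, with no hour given, and whether hours differed was not tested. T1 against T0 and RW against T0 use the same T0 libraries as T2 against T0. None of the 21 clock members tested there passed in RW against T1, the comparison that shares no library with T2 against T0. Only 0.678% of all genes passed there, so that no call among 21 is near the background, and the count of all genes ranged from 0 to 2000 when single libraries were left out.

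The role listed as starch breakdown was the group with the most members lower at T2. Of its 19 members, all tested, 14 fell and 1 rose, with a median log2 fold change of -1.16. Over the whole sucrose and starch list 19 of 43 tested members fell and 1 rose, or 46.5% against 7.00% of all genes, with a median log2 fold change of -0.68. PHS2, an alpha-glucan phosphorylase, was at 564, 797, 1230.3, 679 and 1002 CPM at T0 and 69.9, 63.9, 119, 13.1 and 271 CPM at T2. The T2 library A16c was the lowest and A22c the highest, and all 5 lay below T0 (-3.02 ± 0.63, SE, adjusted p = 0.0152). PHS1, the other glucan phosphorylase of the list, fell from 320.3–502 to 135–222 CPM (-1.16 ± 0.19, adjusted p = 0.00421). DPE2, the disproportionating enzyme that takes up maltose in the cytosol, fell from 154, 324, 192, 277 and 264 CPM to 57.1, 101, 63.8, 102 and 119.6 CPM (-1.48 ± 0.26, adjusted p = 0.00733).

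The breakdown member with the largest decrease was AT4G17090. It was at 461, 1084, 617, 502 and 816 CPM at T0 and 50.5, 80.9, 48.1, 59.1 and 97.2 CPM at T2, a 10.6-fold difference (-3.401 ± 0.31, adjusted p = 1.76e-04). AT1G10760 fell from 819.9–1565 to 33.4–272 CPM (-3.01 ± 0.46), AT4G09020 from 73.7–131 to 11.9–25.5 CPM (-2.51 ± 0.26) and AT5G26570 from 227–362 to 55.9–130.04 CPM (-1.58 ± 0.22). AT1G03310 fell from 83.8–172 to 38.8–56.5 CPM (-1.41 ± 0.19). In all of these the groups were apart. Among all 19 members listed under breakdown 15 passed and 13 were without overlap. The placing of members such as AT1G03310 under breakdown, not synthesis, was not checked against an annotation, and these counts depend on it. The 1 breakdown member that rose was AT3G23920, from 61.4, 67.2, 26.8, 88.1 and 69.1 CPM to 295, 214, 194, 376 and 133 CPM (1.93 ± 0.34, adjusted p = 0.00673).

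The members listed under starch synthesis moved less, a contrast that also depends on the unchecked placing of members. Of 16 tested members 4 fell and none rose, with a median log2 fold change of -0.33, and AT5G48300 fell from 442–774 to 208–351 CPM (-1.21 ± 0.19). Of 8 tested sucrose synthases and sucrose phosphate synthases only SUS1, a sucrose synthase that can also cleave sucrose, passed. It was at 146, 298, 104, 126 and 118 CPM at T0 and 67.1, 68.5, 36.4, 32.999 and 48.1 CPM at T2, with A4 the highest T0 library (-1.67 ± 0.33, adjusted p = 0.0112). Within lane 1 alone 7 of the 11 sucrose and starch members named here still passed, and SUS1, AT3G23920, DPE2 and PHS1 did not. Members of the clock list and of the starch list differed between the same groups of libraries, and a relation between the lists was not tested. At RW, PHS2 was at 139 to 764 CPM and AT4G17090 at 179 to 1129 CPM, with A6c the highest library in both.

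**Figure D3:**
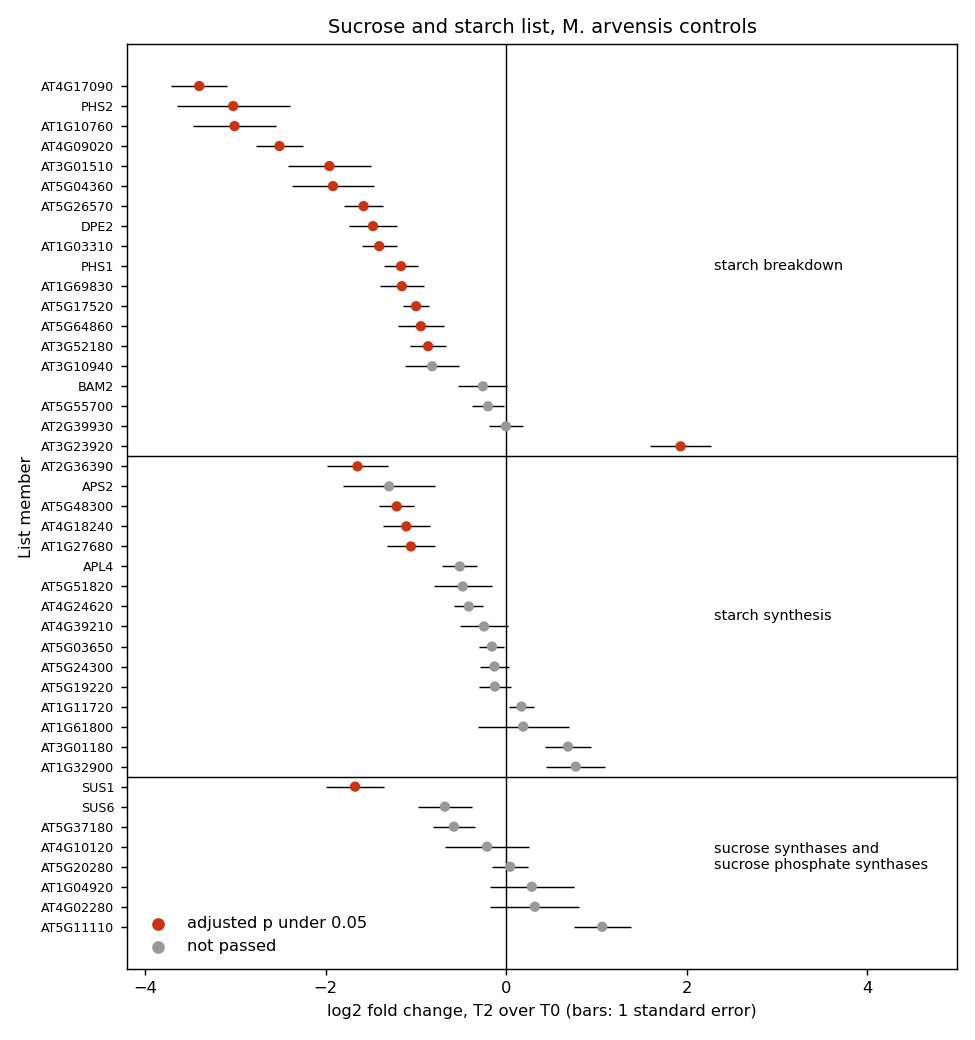
Log2 fold change (T2 over T0, bars of 1 standard error) of the 43 tested members of the sucrose and starch list by role, red where the adjusted p was under 0.05. In the starch breakdown block 14 red points lie left of 0 and AT3G23920 alone lies to the right at 1.93.

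The light-harvesting proteins and photosystem subunits carry out the light reactions of photosynthesis. Of their 37 listed genes, all tested, 7 fell, none rose and 30 did not pass (18.9% passed, against 7.00% of all genes), with a median log2 fold change of -0.56, and 36 of 37 had a negative value. Their summed level was 129048 to 197491 CPM at T0 and 79613 to 121585 CPM at T2, without overlap. AT4G05180 was at 3072, 2872, 3737, 4861 and 4425 CPM at T0 and 1425, 1395, 1669, 1089 and 1393 CPM at T2 (-1.47 ± 0.202, adjusted p = 0.00169). AT1G31330 fell from 3993–6160.3 to 1435–2634 CPM (-1.21 ± 0.21), and AT2G20260 from 427–874 to 217–314 CPM (-1.04 ± 0.22). Some light-harvesting genes are near-identical copies in Arabidopsis, and single values such as that of AT1G29920 (-0.93 ± 0.22) may share reads. Within lane 1 alone none of the 4 genes named here passed (adjusted p 0.0571 to 0.1615).

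For its C2 question the study used lists of candidate genes. None of the 10 photorespiration genes, none of the 13 nitrogen shuttle candidates and none of the 4 tested mitochondrial electron transport genes passed. Their log2 fold changes were between -0.68 and 1.32. The smallest adjusted p in each were 0.0849 (the P-protein of glycine decarboxylase), 0.0925 (aspartate aminotransferase ASP3) and 0.111 (NADH dehydrogenase C1). With 7.00% of all genes passing, lists this short are near the background at 0 calls. Of 28 C4 candidates 2 rose (7.14%, the share of all genes). Alpha CA1 (AT3G52720), a carbonic anhydrase, was at 30.3, 26.1, 38.8, 47.2 and 51.2 CPM at T0 and 306, 379.6, 316, 233 and 222 CPM at T2, without overlap and 7.37-fold higher (2.88 ± 0.24, adjusted p = 9.35e-05). Beta CA6 (AT1G58180), also a carbonic anhydrase, was at 2.82 to 10.7 CPM at T0 and 10.2 to 22.6 CPM at T2, with overlap (1.43 ± 0.39, adjusted p = 0.0495), and lost its call in 12 of 19 alternatives. Of 11 Calvin Benson Bassham cycle genes 2 passed (18.18%), neither of them within lane 1 alone. FBP aldolase (AT2G21330) rose from 768–1205 to 1673–2448 CPM (0.93 ± 0.19), and the gene the study lists as Rubisco activase (AT1G73110) fell from 72.6–102 to 52.5–69.8 CPM (-0.64 ± 0.14). The study states that these genes followed an earlier publication.

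The iron list holds the transcription factors that plants raise when iron is short, an iron-responsive regulator, a transporter that moves iron in the phloem, and the ferritins that store it. Of its 11 tested members 7 rose and 1 fell, or 72.7% against 7.00% of all genes. It is the iron part of the nutrient supply list, of which 8 of 29 tested members passed (27.6%). All 8 are in the iron part. AT3G56970, AT3G56980 and AT3G11050 were near 0 at T0, as was AT2G41240 in all T0 libraries but A45. These 4 came through the filter on low counts by their T2 level. These members could only be called higher, so the share is partly set by the filter. None of the 18 tested members for nitrate, phosphate and sulfate passed, which is near the 7.00% of all genes. AT2G41240 was at 0, 0.0665, 10.7, 0.0656 and 0.138 CPM at T0 and 213, 195, 32.9, 161 and 188 CPM at T2 (6.12 ± 1.49, adjusted p = 0.0316). A45 was the one T0 library with more than 1 CPM and A24c the lowest at T2, and the groups were still apart. AT3G56980 rose from 0.0344–0.395 to 0.875–13.7 CPM (4.86 ± 0.95) and AT3G56970 from 0–0.339 to 0.48–9.18 CPM (5.08 ± 1.06), both near the detection limit at T0.

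Of the more abundant members, AT3G18290 was at 104, 179.9, 354, 103 and 140.3 CPM at T0 and 893, 935, 437, 809.8 and 1069 CPM at T2 (2.203 ± 0.38, adjusted p = 0.00609). AT4G16370 rose from 73.6–233 to 261–610.4 CPM (1.84 ± 0.35) and AT3G47640 from 8.93–32.3 to 34.7–71.7 CPM (1.47 ± 0.36). One listed gene went the other way. AT2G40300 fell from 99.2, 68.1, 34.3, 99.4 and 62.5 CPM to 18.205, 27.2, 20.3, 5.898 and 14.4 CPM (-2.105 ± 0.39, adjusted p = 0.00849). AT3G11050, which stayed under 4 CPM, rose from 0.0262–0.254 to 0.621–3.196 CPM (3.5004 ± 0.66), and 3 members did not pass (-1.297, -0.21 and, for AT5G04150, 4.35 at an adjusted p of 0.0679). At RW AT3G18290 was at 131 to 493 CPM, with A17c the only library above the T0 range. Within lane 1 alone 3 of the 8 iron members still passed, and AT2G41240, AT3G47640, AT3G18290, AT4G16370 and AT2G40300 did not (adjusted p 0.0518 to 0.173).

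The heat shock list holds chaperones and a heat stress factor that are mostly low in unstressed leaves. Of 13 members 8 were tested, and 4 rose and none fell (50.0% against 7.00% of all genes, median log2 fold change 2.57). Members near 0 at T0, such as AT4G25200 and AT2G26150, came through the filter on low counts by their T2 level. Such members could only be called higher, so the direction, the share and the median are partly set by the filter. AT5G52640 was at 2.696, 2.99, 3.304, 1.904 and 3.79 CPM at T0 and 77.4, 180.03, 62.9, 48.8 and 73.2 CPM at T2, 29.5-fold higher, with A15c the highest (4.88 ± 0.39, adjusted p = 8.91e-05). At T1 it was already at 6.64, 42.8, 24.8 and 10.5 CPM, above every T0 library, and at RW it was back at 1.85 to 4.65 CPM. AT2G26150 rose from 0–0.233 to 1.19–4.05 CPM (4.81 ± 0.77) and AT5G51440 from 0.0344–1.13 to 1.44–10.2 CPM (3.76 ± 0.86). AT4G25200 was at 0 in 4 T0 libraries and at 0.491 to 2.08 CPM at T2 (adjusted p = 5.19e-04), and no fold is given for it since T0 held 1 read in all. The other 4 tested members did not pass, with values of -0.66 to 1.37. All 4 genes that rose were below 4 CPM in every T0 library, and 5 members were too low to be tested. Within lane 1 alone AT5G51440 did not pass (adjusted p = 0.119) and the other 3 did.

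**Figure D4:**
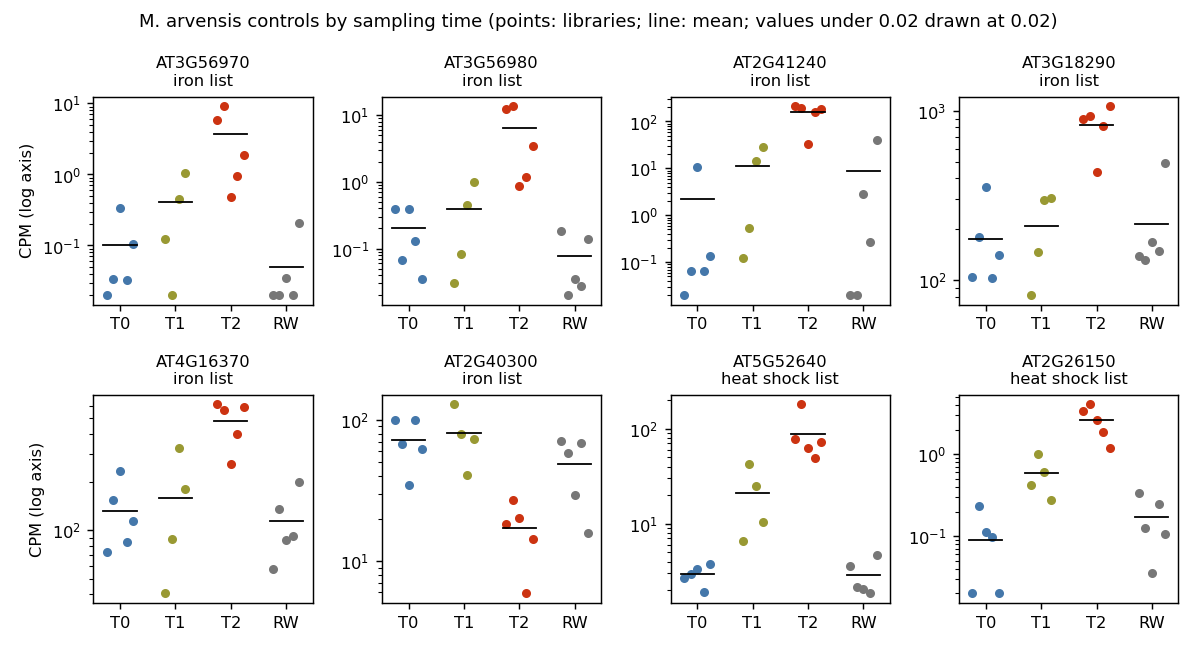
CPM (log axis) of 6 iron-list and 2 heat-shock-list members in the Mav control libraries at T0, T1, T2 and RW, with points for libraries, lines for means and values under 0.02 drawn at 0.02. All T2 points lie above all T0 points except for AT2G40300, where all lie below, and most RW points lie back in the T0 range.

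Among the 312 genes that the study names in its pathway table, chosen there for differences between species in these libraries, 267 were tested and 20 rose and 18 fell, 14.2% against 7.00% of all genes. The Mav T0 libraries entered that choice, so the 2 shares are not directly comparable. The pathway genes described here were picked with their values known. MIPS1 and MIPS2, the inositol phosphate synthases that make the first committed step to myo-inositol, rose together. MIPS2 was at 12.3, 12.99, 14.2, 12.1 and 32.9 CPM at T0 and 310.3, 355, 207, 935 and 168 CPM at T2, 23.01-fold higher, with A48 the highest T0 library and A16c the highest T2 library (4.52 ± 0.55, adjusted p = 8.01e-04). MIPS1 was at 35.3, 39.5, 15.1, 87.96 and 51.9 CPM at T0 and 586, 414, 297, 609.9 and 297 CPM at T2 (3.24 ± 0.43, adjusted p = 0.00145). GolS1, which joins inositol to galactose on the way to raffinose, rose from 0.197–0.395 to 0.649–2.69 CPM (2.32 ± 0.49, adjusted p = 0.0164). Of the 7 tested members of the galactinol and raffinose list 2 rose and none fell (28.6% against 7.00% of all genes), the second being AT5G40390 (10.4–25.6 to 27.4–60.7 CPM, 1.21 ± 0.27). GolS1, near 0 at T0, came through the filter on low counts by its T2 level and could only be called higher.

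In hormone synthesis the named genes went in both directions. GA3OX1, which makes active gibberellin, rose from 1.54, 0.133, 0.48, 1.25 and 0.241 CPM to 8.24, 3.24, 6.29, 7.72 and 8.43 CPM (3.18 ± 0.597, adjusted p = 0.0093). ATGA2OX1, which inactivates gibberellin, fell from 1.099, 1.63, 2.09, 1.02 and 1.58 CPM to 0.0313, 0.116, 0.0847, 0.597 and 0.0456 CPM (-3.14 ± 0.698, adjusted p = 0.0212). KAO2, an earlier enzyme of the gibberellin pathway, fell from 16.3–25.99 to 2.18–6.52 CPM (-2.28 ± 0.27, adjusted p = 7.15e-04). DWF4, a brassinosteroid enzyme, rose from 4.72–8.501 to 9.05–25.6 CPM (1.34 ± 0.27). IPT3, which makes cytokinin, rose from 0.678–3.53 to 4.49–11.9 CPM (1.82 ± 0.47). NCED3, which cleaves carotenoids for abscisic acid, fell from 54.7, 66.9, 34.4, 47.1 and 46.5 CPM to 26.04, 15.3, 17.05, 9.62 and 19.9 CPM (-1.54 ± 0.26, adjusted p = 0.00507).

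In phenylpropanoid and pigment synthesis LDOX, a late enzyme of anthocyanin synthesis, was at 0.0523, 0.299, 1.36, 0.0656 and 0.379 CPM at T0 and 14.4, 21.3, 6.097, 15.9 and 7.41 CPM at T2 (4.86 ± 0.77, adjusted p = 0.004). A close relative at the neighboring locus could share its reads. PAL2, at the entry to phenylpropanoids, rose from 4.82–12.7 to 18.4–50.3 CPM (1.56 ± 0.31), CCR1, a lignin enzyme, from 48.6–116 to 119–179 CPM (0.96 ± 0.23) and OMT1, a methyltransferase, from 7.06–33.2 to 34.6–54.2 CPM (1.34 ± 0.35). These were 3 of the 14 tested monolignol enzymes, of which none fell, and none of the 6 listed cellulose synthases passed, and the list as a whole had 15% of its members pass against 7.00% of all genes. None of the 3 passed within lane 1 alone, and the call of OMT1 was lost in 11 of 19 alternatives. In carotenoid synthesis BETA-OHASE_1, a hydroxylase, rose (0.99 ± 0.24) and LUT2, a lycopene cyclase, fell (-0.65 ± 0.14).

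**Figure D5:**
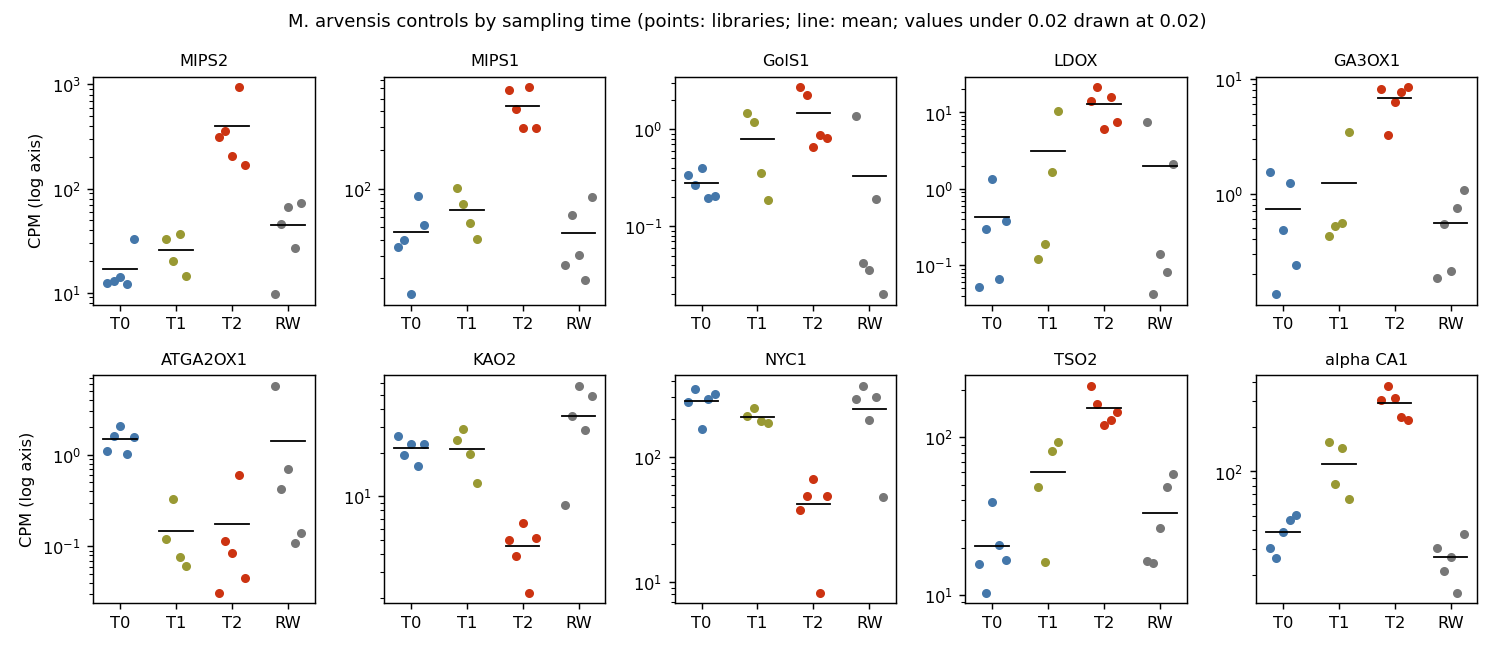
CPM (log axis) of 10 genes named in the study's tables in the Mav control libraries at T0, T1, T2 and RW, with points for libraries, lines for means and values under 0.02 drawn at 0.02. MIPS1, MIPS2, LDOX, GA3OX1, TSO2 and alpha CA1 are higher in every T2 library than in every T0 library, and KAO2 and NYC1 are lower.

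For ageing, of 25 chlorophyll breakdown and senescence members, all tested, 1 rose and 2 fell (12% against 7.00% of all genes), and none of the 10 senescence regulators passed. NYC1, which starts the breakdown of chlorophyll b, was at 276, 349.9, 165, 288 and 318 CPM at T0 and 37.6, 48.4, 65.99, 8.25 and 48.3 CPM at T2, so it fell (-2.78 ± 0.44, adjusted p = 0.0041). AT1G04620, the other that fell, went from 56.4–90.9 to 18.1–44.5 CPM (-1.26 ± 0.25). AT2G29350, listed with the senescence-associated genes, rose from 15.3–34.9 to 37.5–65.4 CPM (1.27 ± 0.25). Of 22 flowering and phase change members AT5G60120 fell from 24.2–31.9 to 7.85–18.9 CPM (-1.08 ± 0.23) and none rose, and none of the 8 SPL phase change factors passed, so that 4.55% of the list passed. Among 20 cell division members only TSO2, a ribonucleotide reductase subunit, passed (5% of the list), and it rose from 15.8, 10.4, 38.7, 20.7 and 16.7 CPM to 212, 162, 119, 129 and 146 CPM (2.88 ± 0.34, adjusted p = 6.92e-04). Of the 26 tested expansins and xyloglucan endotransglucosylases 2 passed (7.69%), which is near the 7.00% of all genes. Of these, AT2G20750 came through the filter on low counts by its T0 level and could only be called lower. Of 11 expansins AT2G20750 fell from 1.87–3.403 to 0.0351–0.423 CPM (-3.97 ± 0.54), and of 15 tested xyloglucan endotransglucosylases AT1G32170 passed (0.763–2.101 to 1.69–15.3 CPM, 2.06 ± 0.55). The groups overlapped in this gene, A24c alone among them was above 5 CPM, and its call was lost in 15 of 19 alternatives.

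Against the 7.00% of all genes, 20% of the water deficit and abscisic acid list passed, 16.7% of the flavonoid list, 13.3% of the trehalose phosphate list, 12.5% of the cytokinin response list and 11.1% of the rapid touch and stress response list. The shares were 9.09% for cuticular wax, 8.33% for defense and 3.70% for glucosinolate synthesis. All of these are 1 to 4 genes. For water deficit and abscisic acid 2 of 20 tested members rose and 2 fell, none of which passed within lane 1 alone, and AT2G33380 rose with overlap between the groups, from 38.6–112 to 110.4–718 CPM (1.94 ± 0.49). AT1G72770 also rose, from 14.3–37.6 to 41.5–79.9 CPM (1.24 ± 0.298), and AT4G26080 fell along with NCED3, from 165–461 to 60.2–143 CPM (-1.501 ± 0.34). The rapid touch and stress response, a set of genes that rise within minutes of cold or touch in Arabidopsis, had 1 of 9 members pass, AT4G25490, which fell from 0.628, 0.798, 4.52, 0.46 and 2.03 CPM to 0.0313, 0, 0, 0.105 and 0.0228 CPM (-5.702 ± 0.97, adjusted p = 0.00539). AT4G25490 came through the filter on low counts by its T0 level and could only be called lower. Its fold rests on few reads at T2. For defense 2 of 24 rose, AT3G52430 from 16.3–29.1 to 37.6–54.5 CPM (0.93 ± 0.19) and AT2G13810 with overlap (2.73 ± 0.72). For trehalose phosphate, a sugar signal, 1 of 15 rose (AT1G68020, 0.96 ± 0.16) and 1 fell (AT4G39770, -1.85 ± 0.33), both without overlap. Of 12 flavonoid members LDOX rose and AT2G47460 fell from 1.31–2.26 to 0.251–0.667 CPM (-2.06 ± 0.33). LDOX, low at T0, came through the filter on low counts by its T2 level and could only be called higher. Of 11 cuticular wax members AT2G47240 fell (-1.02 ± 0.25), of 8 cytokinin response members AT3G48100 rose with overlap (1.84 ± 0.49), and of 27 glucosinolate members AT2G20610 rose with overlap (1.297 ± 0.35). The calls of AT2G47240 and AT2G20610 were lost in 13 of 19 alternatives, that of AT3G48100 in 11, and those of AT2G33380 and AT2G13810 in 10. None of the 7 tested shade response members passed, and those with the smallest p were AT2G43010 (0.75 ± 0.22, adjusted p = 0.0675) and AT1G02340 (1.66 ± 0.51, adjusted p = 0.0757). The glucosinolate list had a median log2 fold change of 0.94, and all 14 of its aliphatic pathway members were between 0.45 and 2.06, none with an adjusted p under 0.05.

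Markers of other leaf cell types and organs were tested too, in short lists of 1 to 5 genes, where 0 calls is near the 7.00% of all genes. None of the tested guard cell (5), phloem (5), xylem (4), epidermis (4), trichome (1) or floral organ (2) markers passed, and the smallest adjusted p were 0.0552 for the phloem marker AT1G22710 (0.86 ± 0.24) and 0.0693 for the guard cell marker AT1G08810 (-0.91 ± 0.27). The summed level was 41.95 to 68.8 CPM at T0 and 51.4 to 60.6 CPM at T2 for guard cells, 662 to 1386 and 977 to 1976 CPM for phloem, 3.82 to 17.5 and 2.91 to 20.1 CPM for xylem, and 110.3 to 263.9 and 131 to 205 CPM for epidermis. It was 10.4 to 12.6 and 6.99 to 13.1 CPM for trichomes, and 2.86 to 6.26 and 2.84 to 7.82 CPM for floral organs. The 4 meristem markers were at or near 0, at most 0.029 CPM in sum, and 2 of them were at 0 in every library. The high level of the light-harvesting list is that of a green leaf.

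Among genes with a mean of at least 1 CPM and no overlap between the groups, the 2 largest changes in each direction were in genes on no list. AT5G42900 was at 21.5, 53.3, 28.6, 14.1 and 30.1 CPM at T0 and 0, 0, 0.0565, 0.0351 and 0.0228 CPM at T2 (-10.14 ± 0.596, adjusted p = 1.94e-05). Its fold rests on very few reads at T2. AT4G33980 fell from 10.2–37.6 to 0–0.182 CPM (-8.02 ± 0.69). AT4G36850 rose from 0.968, 0.166, 0.65, 0.46 and 0.482 CPM to 529, 112, 516, 90.9 and 12.5 CPM (8.79 ± 1.08, adjusted p = 8.79e-04), and AT1G62420 from 0.0985–0.523 to 2.48–102 CPM (6.57 ± 1.14). The T2 libraries differed widely among themselves in the last 2 genes, although all lay above T0.

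Over all genes, T1 against T0 gave 0 calls with edgeR, with 2625 genes (13.1%) at an unadjusted p under 0.05 and 720 genes called by DESeq2. RW against T0 gave 508 higher (2.60%) and 198 lower (1.01%) genes, 3.62% in all, with the same T0 libraries. RW against T1, which shares no library with T2 against T0, gave 85 higher (0.427%) and 50 lower (0.251%), 0.678% in all. In it AT5G52640 fell by 2.85 on the log2 scale (adjusted p = 0.0496), alpha CA1 (AT3G52720) by 2.06 (adjusted p = 0.0349), and AT5G51440 by 3.02 (adjusted p = 0.0448).

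Whether the change was the same in Mmo was tested in one fit of its T0 and T2 controls with those of Mav. The change from T0 to T2 differed between the species in 730 genes (3.29% of 22219 tested), with 229 higher (1.03%) and 501 lower (2.25%) in Mav. In Mmo AT5G61380 was at 11.2, 4.098, 3.93 and 10.5 CPM at T0 and 1.05 and 2.12 CPM at T2. All 4 Mmo values at T0 lay below all Mav values at T0, and the log2 fold change in Mmo was -2.22 ± 0.72 (SE), which did not pass (adjusted p = 0.117). Over all genes the change within Mmo passed for 2.40% in this fit. The Mav minus the Mmo change was -4.68 ± 0.81 (adjusted p = 0.00684). AT1G01060 was at 77.4, 71.6, 76.8 and 29.2 CPM at T0 and 201 and 232 CPM at T2 in Mmo, and its change there passed (adjusted p = 0.0272) without passing the test of a difference between the species (1.33 ± 0.52, adjusted p = 0.177). Of the clock list 3 of 22 tested members differed in their change, of the sucrose and starch list 4 of 45, and of the light-harvesting list none of 37. NCED3 fell in Mav and rose in Mmo (log2 fold change 1.605, adjusted p = 0.0173), a difference of -3.14 ± 0.404 (adjusted p = 0.00143). The Mmo libraries labeled M3s and M4s at T0 agreed more closely than the other pairs of that group, and with them summed 451 genes differed. With 2 Mmo libraries at T2, leaving out M14c or M16c gave 207 and 190 genes.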

How the data were processed

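The estimated counts and TPM values were deposited by the authors, with 1 file for each of the 78 libraries. For the authors, Nebion AG placed the reads by translated BLAT on Arabidopsis coding sequences (TAIR 10) and kept each best-scoring mapping. Reads of one gene family can thus be divided between members. The estimated counts as deposited are whole numbers without normalization, and the TPM values were scaled by the authors to one fixed sum per library. The strand setting and read trimming are not given in the sources used here. The labels and the methods name different sequencer models.

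The counts were rounded, filtered with filterByExpr, scaled with TMM and tested with the quasi-likelihood test of edgeR 4.0.16 in R 4.3.3, fitting only the groups compared, with Benjamini-Hochberg adjustment over all genes tested. CPM values use TMM factors over the 19 Mav controls, without length correction, so levels are compared within a gene only. DESeq2 1.42.0 and limma 3.58.1 were used for alternatives. Scripts were tested on simulated data. Genes under about 1 CPM rest on few reads at these depths. Nothing in the labels says whether a library is more than 1 plant, so p-values measure the spread between these samples.

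Genes were named by rule, as the 10 largest changes per direction among those that passed, had a mean of at least 1 CPM and did not overlap between groups, of which 2 per direction that are on no list and carry no name are printed, and as up to 4 members per list with the smallest p. Further clock, iron, heat shock and starch members, and genes of the study's pathway table, were added after their values were seen. The members and lists were chosen with earlier results of these data known. The authors' own tables of comparisons were used for gene names only. The alternatives were RLE scaling, no filter, DESeq2, limma on log2-transformed TPM with a pseudocount of either 1 or 0.1, a joint fit of all 19 Mav controls or all 78 libraries, lane as a term, lane 1 only, unadjusted p, a test against 2-fold, and leaving out each library. Added after seeing the data were DESeq2 for T1 and RW against T0, leaving out libraries for the organelle share, and a count without the clock list.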

Additional observations from a re-analysis of the deposited data

Results flagged for a closer look

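Each of 83 genes, and 3 measures of the libraries, was examined for a single library far from the other 4 of its group (Dixon's test at 95%), and 22 of 172 groups held one. Chance gives about 1 in 20 only for independent, normally distributed values. CPM need not be so distributed, and genes of one library are not independent. All flagged libraries were the highest of their group, except 1 for AT2G41240. No cause was tested. At T0, A4 was the highest library for AT5G61380 (293 CPM), AT2G40080 (72.4 CPM), AT3G46640 (37.7 CPM) and SUS1 (AT5G20830, 298 CPM). A45 was the highest for AT2G41240 (10.7 CPM), AT4G25200 (0.0282 CPM, a single read), AT5G51440 (1.13 CPM) and LDOX (AT4G22880, 1.36 CPM). A48 was the highest for AT2G20260 (874 CPM) and MIPS2 (AT2G22240, 32.9 CPM), and A46 for AT2G29350 (34.9 CPM). At T2, A16c was the highest for MIPS2 (935 CPM), ATGA2OX1 (AT1G78440, 0.597 CPM), AT1G62420 (102.0 CPM), AT2G33380 (718 CPM) and AT1G73110 (69.8 CPM). A9c was the highest for AT5G17300 (48.3 CPM) and AT1G72770 (79.9 CPM), A22c for AT5G48300 (351 CPM) and A15c for AT5G52640 (180.02 CPM), and A24c was the highest for AT1G32170 (15.3 CPM) and the lowest for AT2G41240 (32.9 CPM).

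The change from T0 to T2 differed between Mav and Mmo (edgeR's test of the interaction, adjusted p under 0.05) in 20 of the 83 genes. Over all genes it differed in 730 of 22219 tested (3.29%). The 83 genes were named because they passed T2 against T0 in the same Mav libraries. That choice favors a difference from Mmo, so the count among them is not comparable with the share of all genes. The values below are the Mav minus the Mmo log2 change. It was negative for AT5G61380 (-4.68), AT5G24470 (-3.26), AT2G18915 (-2.37), PHS1 (AT3G29320, -1.56), AT4G17090 (-2.19), AT4G09020 (-2.52), KAO2 (AT2G32440, -3.38), NYC1 (AT4G13250, -2.36), NCED3 (AT3G14440, -3.14), AT5G42900 (-7.22), AT4G33980 (-6.63) AT2G20750 (-7.38), AT2G47460 (-2.22) and AT5G60120 (-1.56). It was positive for AT4G16370 (2.12), AT5G52640 (4.84), AT4G25200 (5.96, a fitted value that rests on 1 read at T0 in Mav and gives no fold), LDOX (AT4G22880, 4.68), CCR1 (AT1G15950, 1.69) and AT2G29350 (2.49). For AT4G09020 and AT2G18915 the log2 change in Mmo was 0.00 and 0.04, and for AT5G52640 it was 0.04. For KAO2, NCED3 and AT2G20750 it was 1.104, 1.605 and 3.405, so that these fell in Mav and had positive values in Mmo.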

How the results depend on the processing

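Of 1577 values of the 83 named genes that passed, taken under 19 alternatives, 1356 kept their direction and passed, 221 kept their direction and no longer passed, and 0 changed direction. Within lane 1 alone 44 of the 83 no longer passed, with lane as a term 20, with all 19 Mav controls in one fit 15, without A15c 18, without A9c 17, without A16c 3, and with RLE scaling or DESeq2 none. The 1388 genes of T2 against T0 became 2784 with DESeq2, 778 with lane as a term, 416 within lane 1 and 4540 at an unadjusted p. The 980 genes past 2-fold became 1730 with DESeq2, 416 within lane 1, 2027 at an unadjusted p and 169 when tested against 2-fold itself. Leaving out single libraries gave 898 to 1682 genes, and 713 to 1207 past 2-fold. Without the clock list 1375 genes remained. RW against T1 gave 1940 genes with DESeq2 in place of 135, and 0 to 2000 without single libraries (0 without A11c, A12c, A8c or A10c, 2 without A3c, 54 without A17c, 89 without A13c, 2000 without A6c). The 730 genes that differed between Mav and Mmo became 1784 with DESeq2 and 451 with near-identical libraries summed, and 190 to 1181 without single libraries. RW against T0 gave 2500 genes with DESeq2 in place of 706, and T1 against T0 gave 720 in place of 0. The difference in organelle share ranged from -0.299 to 0.0698 percentage points, and it turned positive (0.0698) without A48. The causes were not tested, other than that fewer libraries enter when some are left out. No near-identical pair was found within Mav T0, T1, T2 or RW (lowest ratio 18.5), so summing changed nothing there. No paired analysis was possible because the labels of the groups compared share no replicate numbers. Genes near 0 reads at T0, such as AT4G25200 and AT3G56970, have folds that rest on few counts.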
